A study of Mus musculus with 10 samples.

Results

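The genes described here encode the secreted Wnt proteins, the receptors that bind them at the cell surface and the proteins that block, amplify or damp the signal. Members were all protein-coding genes whose symbols begin with Wnt, Fzd, Sfrp or Rspo and a digit, together with the Dkk genes, *Lgr4*, *Lgr5*, *Lgr6*, *Lrp5*, *Lrp6*, *Axin1*, *Axin2*, *Wif1*, *Frzb* and *Notum*, provided that at least 10 reads were counted in at least 5 of the 10 muscles. Of the 25700 genes listed, 51 had such a symbol and 36 of these reached the count limit, namely 10 Wnt ligands, 12 Frizzled and Lrp receptors, 8 secreted inhibitors, 4 R-spondin and Lgr genes and 2 Axin genes. The mRNA was sequenced from the tibialis anterior (TA) muscle of 5 Pax7Cre and 5 miR-501KO mice, all 12-week-old C57BL/6 males studied at day 6 after an intramuscular injection of cardiotoxin (CTX), a venom toxin that destroys muscle fibers and starts their regeneration. The Pax7Cre mice, labelled wild type, carry Cre recombinase under the Pax7 promoter, which is active in muscle stem cells. These cells and their descendants form the Pax7 lineage. The miR-501KO mice are labelled miR-501 -/-, and in the study's methods and figures the deletion in these muscles was made by the same Pax7Cre acting on a floxed miR-501 allele on the X chromosome, so that cells outside the Pax7 lineage keep the miRNA. Each library holds the RNA of a whole muscle, and deletion of miR-501 was not checked in these counts.

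Wnt proteins are lipid-modified ligands that bind a Frizzled receptor, and in the canonical branch Lrp5 or Lrp6 as well, which stops the Axin scaffold from marking β-catenin for destruction. Sfrp proteins, Frzb and Wif1 bind the ligands themselves, several Dkk proteins bind Lrp6, and R-spondins with their Lgr receptors keep Frizzleds at the cell surface. In regenerating muscle, Wnt signals from fibers and from mesenchymal cells act on muscle stem cells, and Wnt7a acting through Fzd7 is known to promote the expansion of these cells.

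The first question was which members carry a site for the deleted miRNA, since loss of a miRNA can release its direct targets. The mature miR-501-3p, taken from RefSeq for the build GRCm38.p6, lies at chrX:7241270-7241291 on the minus strand, and is shown with its seed (bases 2 to 8) in capitals. Below it stand the stretches of 4 member transcripts whose annotated 3′ untranslated region (UTR) in GRCm38 holds the 7-base complement of that seed, written 5′ to 3′ on the strand of the gene with the complement in capitals. The sites lie at chr4:137297489-137297495 on the plus strand for *Wnt4*, chr7:89409571-89409577 on the plus strand for *Fzd4*, chr19:3596398-3596404 on the minus strand for *Lrp5* and chr10:115450839-115450845 on the minus strand for *Lgr5*.
miR-501-3p: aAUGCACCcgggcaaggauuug
Wnt4: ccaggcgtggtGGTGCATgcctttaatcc
Fzd4: tccaaatacgtGGTGCATaattgttcctt
Lrp5: ctgagattaatGGTGCATcaccaccacct
Lgr5: aagtaggattcGGTGCATttagcttggtt
A 7-base site was thus present in 4 of 36 members (11.1%), beside 1159 of 14074 genes with an annotated 3′ UTR among all genes tested (8.24%). The 6-base complement GTGCAT, which the 7-base sites contain, was found in 18 members (50%) and in 33.8% of all genes with a 3′ UTR. A match of letters is a description and not a shown binding site. In miR-501KO over Pax7Cre muscle, the log2 fold change was -0.41 for *Wnt4* (unadjusted p = 0.152), -0.088 for *Fzd4* (unadjusted p = 0.253), -0.03 for *Lrp5* (unadjusted p = 0.818) and -0.0016 for *Lgr5* (unadjusted p = 0.994) by edgeR's quasi-likelihood test. Without Pax7Cre mouse 2, *Wnt4* was at -0.14 (unadjusted p = 0.546). The median log2 fold change was -0.06 for the 4 members with a 7-base site and -0.068 for the other members, so these 4 lay among the rest.

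The libraries held between 18609222 and 24753258 counts, of which the 36 members together took 0.0591% to 0.1%. Mitochondrial genes took 6.59% to 14.0% of the counts, with the lowest share in Pax7Cre mouse 4 and the highest in Pax7Cre mouse 2, and these mice also had the lowest and the highest mature fiber score (the mean centred log2 level of 22 genes of the mature fiber). Mice of the same genotype differed by more than counting noise. The labels do not say that mice of a genotype came from separate litters, so p-values measure the spread between these mice.

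Levels were compared between genes as CPM (counts scaled to library size with TMM factors) divided by the kilobases of annotated exon, averaged over the 10 mice. The secreted inhibitors *Sfrp2* and *Sfrp1*, which bind Wnt ligands outside the cell, stood at the top with 41.6 ± 17.1 and 21.7 ± 6.25 CPM per kilobase (SD, n = 10). The most abundant receptor gene was *Fzd4*, which in endothelial cells also binds the ligand Norrin, at 11.6 ± 0.83 CPM per kilobase. It was followed by *Axin1* at 9.23, *Dkk3* at 8.28, *Fzd2* at 7.27, *Lrp6* at 6.97 and *Lrp5* at 5.97 CPM per kilobase, and these neighbours lay within about an SD of each other, except that *Fzd4* was above *Axin1* by more than their SDs. The highest ligand was *Wnt9a* at 4.62 ± 0.525 CPM per kilobase, ahead of *Wnt11* at 2.64 ± 0.452 and *Wnt5a* at 1.08 ± 0.184. The other 7 ligands stayed below 1 CPM per kilobase, down to *Wnt7b* at 0.13. In summed CPM the 10 ligands reached 37.0 to 46.7 per mouse, beside 312 to 405 for the 12 receptors and 172 to 383 for the 8 inhibitors, sums that a few abundant genes carry, while *Wnt9a* and *Wnt11* alone were above several receptor and inhibitor genes per kilobase. *Sfrp1* and *Sfrp2* alone made up 19.4% to 37.9% of all member counts in a mouse, with the highest share in Pax7Cre mouse 4.

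**Figure D1:**
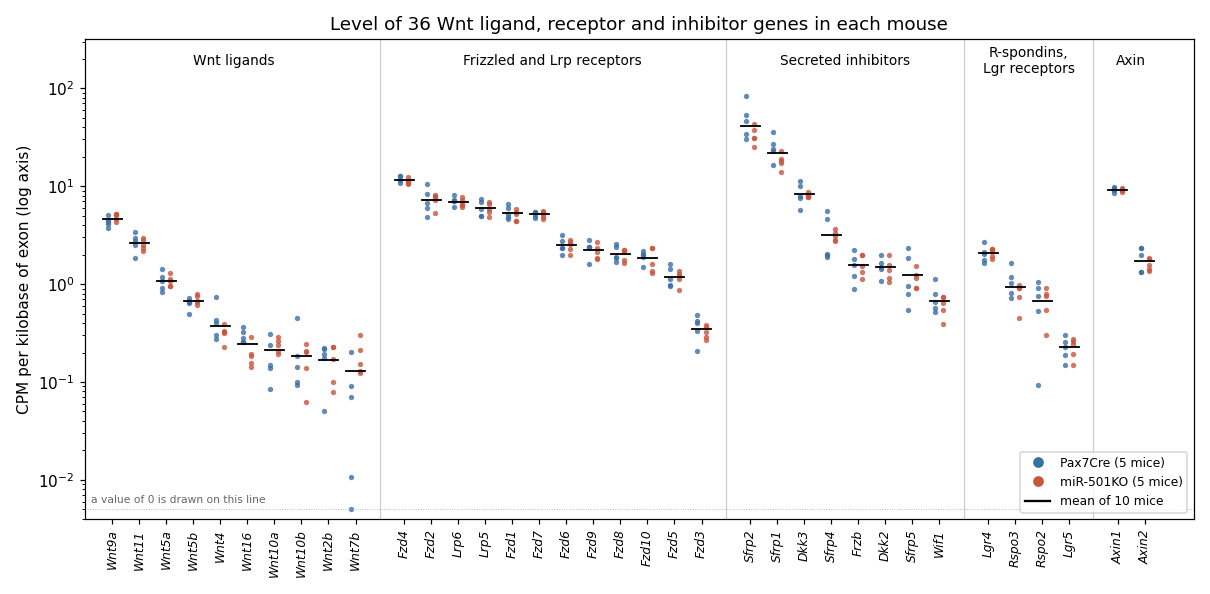
Level of each of the 36 members in each mouse, in CPM per kilobase of exon on a log axis, by role and ordered by the mean of 10 mice (black line), with Pax7Cre in blue and miR-501KO in red. Sfrp2 (41.6) and Sfrp1 (21.7) lie highest and Wnt7b (0.13) lowest, and the points of both genotypes lie among each other for most members.

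The members were not equally steady from mouse to mouse. *Axin1*, the scaffold of the β-catenin destruction complex, had the smallest coefficient of variation at 4.41%, followed by *Fzd7* at 6.91% and *Fzd4* at 7.19%. The widest relative spread was in *Wnt7b* at 72.2% and *Wnt10b* at 60.4%, with few reads each, but *Sfrp2* at 41.0% and *Sfrp4* at 37.4% also varied despite at least 173 reads in every mouse. The range of reads was 0 to 28 for *Wnt7b*, 5 to 29 for *Wnt10b*, 4 to 19 for *Wnt10a* and 4 to 23 for *Wnt2b*, which were the members nearest to the count limit. The 15 matching genes below the limit included *Wnt2* with 2 to 17 reads, *Wnt6* with 4 to 19, *Rspo1* with 2 to 18 and *Notum*, a secreted enzyme that removes the lipid from Wnt, with 0 to 11. *Wnt7a* and *Dkk1* had 1 read each in all mice together, and *Wnt3a* and *Dkk4* had 0, so at this depth neither *Wnt7a* nor these inhibitors could be compared.

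The design asks whether loss of miR-501 in the stem cell lineage altered these messages on day 6. No member differed between the genotypes after adjustment. Over all 14410 genes tested, 0 reached an adjusted p under 0.05 by edgeR's quasi-likelihood test with Benjamini-Hochberg adjustment (smallest adjusted p = 1.00), as with DESeq2's Wald test and edgeR's likelihood ratio test (0 genes each). At an unadjusted p under 0.05, 3 of 36 members (8.33%) were lower in miR-501KO muscle and 0 were higher, beside a background of 1.05% of all genes tested, made up of 0.382% higher and 0.666% lower. The 3 were the ligand *Wnt16* and the inhibitors *Sfrp1* and *Sfrp2*. These counts depended on single mice. Without Pax7Cre mouse 4, 1 member was lower and 2 were higher, beside 242 lower and 228 higher of 14487 genes tested. Without Pax7Cre mouse 2, 3 members were lower and 0 higher, beside 186 lower and 267 higher of 14510, and without miR-501KO mouse 1 there was 1 lower member and 0 higher, beside 59 lower and 39 higher of 14478. In 0 members did the 5 miR-501KO values lie wholly outside the 5 Pax7Cre values, beside 0.139% of all genes. In bulk muscle, fewer cells of a type and less RNA per cell cannot be told apart.

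A log2 fold change below 0 was found in 30 of 36 members (83.3%), beside 52.1% of all genes tested, with a median of -0.068 beside -0.0042. Most of these differences were small, since 28 members (77.8%) lay within 0.25 of 0 on the log2 scale, as did 93.2% of all genes. The number of members below 0 ranged from 22 (61.1%, without Pax7Cre mouse 5) to 30 when each mouse was left out in turn, beside 51.2% to 52.9% of all genes in the same fits. By role, the median log2 fold change was -0.037 for ligands, -0.064 for receptors, -0.13 for secreted inhibitors and -0.0045 for R-spondin and Lgr genes.

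**Figure D2:**
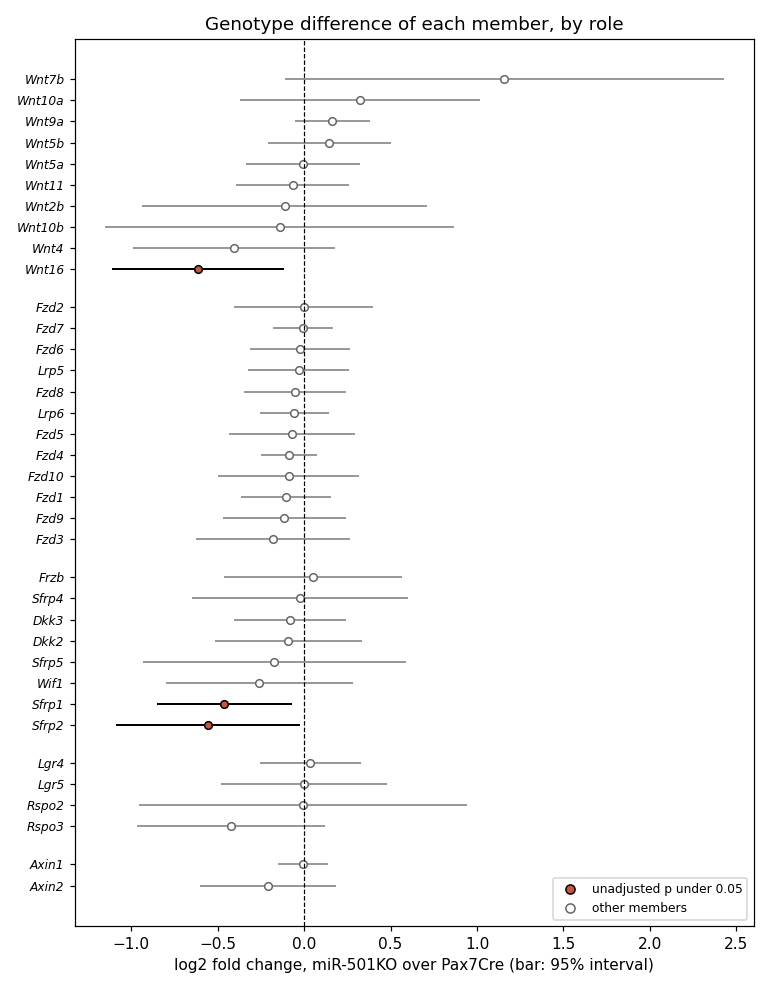
Log2 fold change of each member, miR-501KO over Pax7Cre (point), with its 95% interval (bar), by role (from the top: ligands, receptors, secreted inhibitors, R-spondin and Lgr genes, Axin genes). The filled points are Wnt16 (-0.61), Sfrp1 (-0.46) and Sfrp2 (-0.56), with unadjusted p under 0.05, and all 12 receptors lie between -0.18 and -0.0021.

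Among the ligands, *Wnt16*, known from bone and from blood stem cell development, had the smallest p. The gene lies at chr6:22288227-22298522 on the plus strand of GRCm38. Its CPM was 1.12, 1.58, 1.22, 1.40 and 1.13 in Pax7Cre mice 1 to 5 and 0.8, 0.614, 1.25, 0.848 and 0.678 in miR-501KO mice 1 to 5. In 4 of 5 miR-501KO mice the level was below every Pax7Cre mouse, while miR-501KO mouse 3 lay within the Pax7Cre range. The log2 fold change was -0.61 (SE 0.226, 95% interval -1.10 to -0.12, unadjusted p = 0.0182, adjusted p = 1.00 by edgeR), and an exact two-sided permutation test on CPM gave p = 0.0317, where 5 mice against 5 can reach 0.00794. The unadjusted p stayed under 0.05 in 10 of 10 fits that each left out 1 mouse, with log2 fold changes from -0.81 to -0.52. These values rest on 13 to 35 reads per mouse, and the 3′ UTR of *Wnt16* held a 6-base but no 7-base complement of the miR-501-3p seed.

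*Wnt7b*, a ligand best known from lung and kidney development, had the largest fitted fold change of the members, but it reached the count limit through the group in which it was higher. At least 10 reads were counted in all 5 miR-501KO mice (15 to 28 reads) and in 2 Pax7Cre mice (10 and 25 reads), while the other Pax7Cre mice had 0, 1 and 7, so its place among the members and its p-values are not independent of the limit. Its CPM was 0.448, 0, 0.0528, 1.00 and 0.343 in Pax7Cre mice 1 to 5, and 0.6, 1.04, 0.75, 1.48 and 0.636 in miR-501KO mice 1 to 5. Every miR-501KO mouse was above 4 of the Pax7Cre mice, and Pax7Cre mouse 4 lay inside the miR-501KO range. The log2 fold change was 1.16 (SE 0.584, 95% interval -0.11 to 2.42, unadjusted p = 0.0697, adjusted p = 1.00 by edgeR, exact permutation p = 0.0635). Without Pax7Cre mouse 4 it was 1.98 (unadjusted p = 0.00498), and DESeq2's Wald test on all mice gave 1.25 (unadjusted p = 0.0458), so this gene moved across the unadjusted threshold with the mice and the tool. The exons of *Wnt7b* overlap *AU022754* on the opposite strand.

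*Wnt9a*, the most abundant ligand, had a CPM of 12.4, 13.7, 14.3, 17.1 and 15.1 in Pax7Cre mice 1 to 5 and 17.5, 14.3, 17.5, 16.7 and 15.3 in miR-501KO mice 1 to 5. In 2 miR-501KO mice the level was above every Pax7Cre mouse and the other miR-501KO values lay among those of Pax7Cre mice, with a log2 fold change of 0.16 (95% interval -0.05 to 0.38, unadjusted p = 0.123 by edgeR). *Wnt11*, which acts through the β-catenin-independent branch and helps to orient early muscle fibers, measured 11.3, 14.2, 7.61, 10.4 and 12.3 CPM in Pax7Cre and 9.73, 10.5, 12.3, 9.11 and 11.7 CPM in miR-501KO mice. Pax7Cre mice 2 and 3 held the highest and the lowest *Wnt11* value of all 10 mice, and the log2 fold change was -0.066 (95% interval -0.39 to 0.26).

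*Wnt5a*, the main ligand of the β-catenin-independent branch in connective tissue, measured 6.49, 8.34, 9.25, 11.2 and 7.20 CPM in Pax7Cre and 8.77, 7.41, 10.2, 8.42 and 7.50 CPM in miR-501KO mice. All miR-501KO values lay inside the Pax7Cre range, with a log2 fold change of -0.0078 (95% interval -0.33 to 0.32). *Wnt10b*, which restrains the adipogenic fate of muscle precursors, measured 0.314, 0.633, 1.53, 0.481 and 0.343 CPM in Pax7Cre and 0.841, 0.472, 0.708, 0.689 and 0.212 CPM in miR-501KO mice. Its highest value was in Pax7Cre mouse 3, and its log2 fold change of -0.14 had an interval from -1.15 to 0.86, too wide to place it. Of the remaining ligands, *Wnt4* had its highest level, 3.06 CPM, in Pax7Cre mouse 2. By edgeR, *Wnt5b* had a log2 fold change of 0.15 (unadjusted p = 0.383), *Wnt2b* of -0.11 (unadjusted p = 0.77) and *Wnt10a* of 0.32 (unadjusted p = 0.328). *Wnt10a* reached 10 reads in 6 of the 10 mice, more of them miR-501KO than Pax7Cre, so its p is not independent of the count limit. The summed CPM of the 10 ligands was 41.2 ± 3.71 in Pax7Cre and 42.2 ± 3.01 in miR-501KO muscle (SD, n = 5 each).

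All 12 receptor genes had a log2 fold change between -0.18 and -0.0021, and 0 had an unadjusted p under 0.05. *Fzd7*, the receptor through which Wnt7a acts on muscle stem cells, measured 21.2, 24.96, 22.4, 24.7 and 24 CPM in Pax7Cre mice 1 to 5 and 20.9, 24.7, 22.2, 25.3 and 23.7 CPM in miR-501KO mice 1 to 5. These ranges nearly coincided, and the 95% interval of the log2 difference ran from -0.18 to 0.16. *Fzd4* measured 72.9, 85.6, 78.2, 77.7 and 85.8 CPM in Pax7Cre and 70.6, 75.9, 74.5, 72.1 and 83.4 CPM in miR-501KO mice. The highest miR-501KO value stayed below the highest Pax7Cre values and 2 miR-501KO mice lay below all Pax7Cre mice, but the difference of -0.088 on the log2 scale had an interval from -0.25 to 0.071.

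*Fzd2* measured 24.9, 17.7, 21.98, 38.2 and 30.4 CPM in Pax7Cre and 26.3, 28.5, 29.6, 19.3 and 29.3 CPM in miR-501KO mice. The 2 means were equal at 26.6 CPM, and Pax7Cre mouse 4 was the highest and Pax7Cre mouse 2 the lowest of all mice. *Fzd3*, a receptor of planar polarity and axon guidance, measured 4.21, 2.64, 6.23, 5.10 and 5.44 CPM in Pax7Cre and 4.84, 4.72, 4.12, 3.71 and 3.43 CPM in miR-501KO mice. It had the largest receptor difference, -0.18 (95% interval -0.62 to 0.26, unadjusted p = 0.388 by edgeR), with all miR-501KO values inside the Pax7Cre range. Without Pax7Cre mouse 3 it was -0.064 and without Pax7Cre mouse 2 it was -0.33 (unadjusted p = 0.0508 by edgeR). The co-receptor genes *Lrp5* and *Lrp6* had log2 fold changes of -0.03 and -0.056, and the other 6 Frizzled genes lay between -0.12 for *Fzd9* and -0.023 for *Fzd6*. The summed receptor CPM was 358 ± 37.7 in Pax7Cre and 344 ± 25.8 in miR-501KO muscle (SD, n = 5 each).

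The secreted inhibitors held the most abundant members with an unadjusted p under 0.05. *Sfrp1*, at chr8:23411502-23449632 on the plus strand, measured 72.2, 104, 119, 155 and 99.5 CPM in Pax7Cre mice 1 to 5 and 60.9, 99.2, 83.0, 79.8 and 76.3 CPM in miR-501KO mice 1 to 5. Apart from Pax7Cre mouse 1, every Pax7Cre mouse was above every miR-501KO mouse. The log2 fold change was -0.46 (SE 0.177, 95% interval -0.84 to -0.078, unadjusted p = 0.0221, adjusted p = 1.00 by edgeR), and the exact permutation test gave p = 0.0794. It was -0.30 (unadjusted p = 0.0661) without Pax7Cre mouse 4 and -0.38 (unadjusted p = 0.057) without miR-501KO mouse 1.

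*Sfrp2*, at chr3:83766321-83774316 on the plus strand and known as a stromal Wnt modulator, measured 73.3, 65.1, 115, 179.8 and 99.1 CPM in Pax7Cre mice 1 to 5 and 54.2, 93.0, 66.3, 67.2 and 81.7 CPM in miR-501KO mice 1 to 5. The groups overlapped, since Pax7Cre mice 1 and 2 lay among the miR-501KO values and Pax7Cre mouse 4 stood far above all others. The log2 fold change was -0.56 (SE 0.242, 95% interval -1.08 to -0.032, unadjusted p = 0.0393, adjusted p = 1.00 by edgeR), and the exact permutation test gave p = 0.135. Without Pax7Cre mouse 4 it was -0.28 (unadjusted p = 0.143), and the unadjusted p was under 0.05 in only 5 of 10 fits that each left out 1 mouse. The exons of *Sfrp2* overlap *Gm26771* on the opposite strand.

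The sum over the 8 inhibitors was 273 ± 73.3 CPM in Pax7Cre and 207 ± 26.3 CPM in miR-501KO muscle (SD, n = 5 each), and the Pax7Cre mean was 246 CPM without mouse 4. *Sfrp1* and *Sfrp2* carried most of this sum, with means of 109.9 and 106.5 CPM in Pax7Cre and 79.85 and 72.48 CPM in miR-501KO muscle. *Dkk3*, a divergent Dickkopf protein, measured 26.6, 19.2, 38.1, 25.6 and 33.6 CPM in Pax7Cre and 26.6, 29.0, 27.1, 26.0 and 26.2 CPM in miR-501KO mice. The miR-501KO values were tight while the Pax7Cre values surrounded them, with a log2 fold change of -0.085 (95% interval -0.40 to 0.23). *Frzb*, a member of the Sfrp family, measured 5.82, 7.23, 3.91, 2.89 and 5.09 CPM in Pax7Cre and 3.68, 4.30, 5.00, 6.46 and 6.36 CPM in miR-501KO mice. It was the only inhibitor with a log2 fold change above 0, at 0.05 (95% interval -0.46 to 0.56).

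*Wif1*, which binds Wnt ligands, measured 1.39, 1.90, 1.58, 2.73 and 1.27 CPM in Pax7Cre and 1.80, 1.32, 1.54, 0.954 and 1.78 CPM in miR-501KO mice. Again Pax7Cre mouse 4 was the highest, and the log2 fold change was -0.26 (95% interval -0.79 to 0.28), or -0.04 without that mouse. *Sfrp4* and *Sfrp5* did not share this pattern, since their highest values, 23.2 and 4.49 CPM, were in Pax7Cre mouse 2, and Pax7Cre mouse 4 had 8.22 and 1.04 CPM. Their log2 fold changes were -0.021 and -0.17, and that of *Dkk2* was -0.093.

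**Figure D3:**
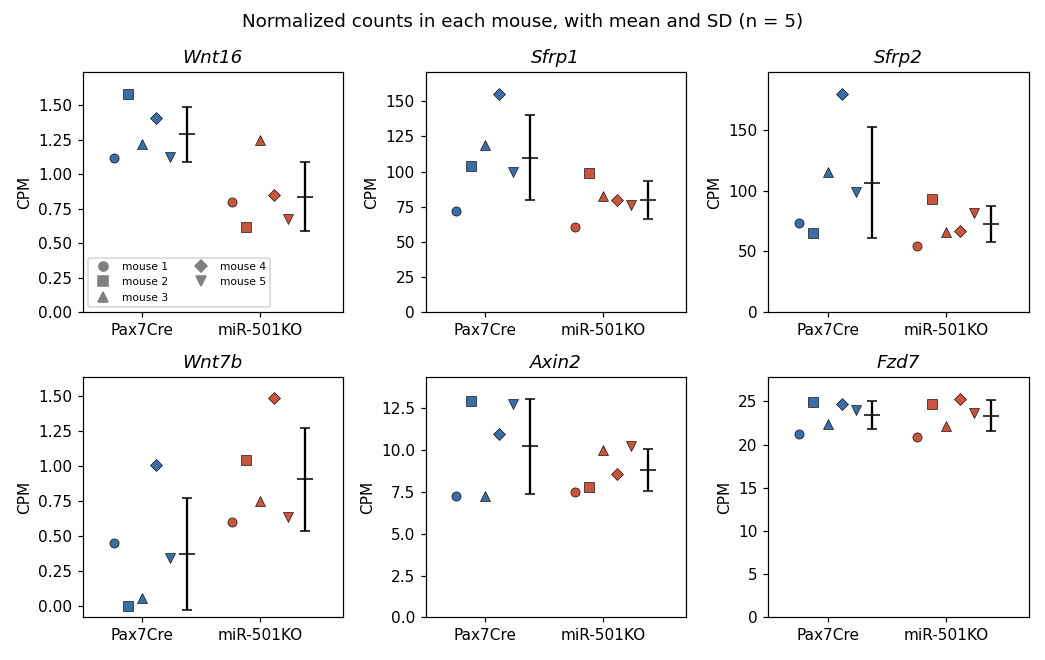
CPM of 6 members in each of the 10 mice, with a marker shape for each mouse number. The mean and SD of each genotype (n = 5) stand at the right of the points. The sample titles do not say whether equal numbers mark a pair. In 4 of 5 miR-501KO mice Wnt16 lies below all Pax7Cre mice, Sfrp1 and Sfrp2 are highest in Pax7Cre mouse 4 (155 and 179.8), and Fzd7 lies between 20.9 and 25.3 in both genotypes.

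R-spondins are secreted amplifiers, and Lgr4 and Lgr5 are their receptors, the latter also a stem cell marker in several epithelia. *Rspo3* measured 3.18, 2.48, 5.02, 3.69 and 2.25 CPM in Pax7Cre mice 1 to 5 and 2.28, 2.83, 3.00, 1.38 and 2.84 CPM in miR-501KO mice 1 to 5. The groups overlapped, with the highest value in Pax7Cre mouse 3 and the lowest in miR-501KO mouse 4, and the log2 fold change was -0.42 (95% interval -0.96 to 0.12, unadjusted p = 0.114 by edgeR), or -0.23 (unadjusted p = 0.339) without Pax7Cre mouse 3. *Lgr4* measured 10.5, 15.9, 12.6, 9.59 and 12.0 CPM in Pax7Cre and 11.4, 10.7, 13.4, 13.5 and 13.0 CPM in miR-501KO mice. Its log2 fold change was 0.035 (95% interval -0.25 to 0.32), with all miR-501KO values inside the Pax7Cre range.

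*Lgr5* measured 2.33, 1.53, 1.96, 2.61 and 3.13 CPM in Pax7Cre and 2.52, 2.83, 2.67, 1.54 and 1.99 CPM in miR-501KO mice. Its group means were equal at 2.31 CPM, and the 95% interval of the log2 difference ran from -0.48 to 0.47. *Rspo2* ranged from 0.475 CPM in Pax7Cre mouse 2 to 5.39 CPM in Pax7Cre mouse 3, which took in all miR-501KO values, with a log2 fold change of -0.0074 (95% interval -0.95 to 0.93).

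The Axin genes sit inside the cell, and *Axin2* is itself switched on by β-catenin and serves as a common reporter of the canonical branch. *Axin2*, at chr11:108920349-108950783 on the plus strand, measured 7.26, 12.9, 7.24, 10.9 and 12.8 CPM in Pax7Cre mice 1 to 5 and 7.53, 7.79, 10.04, 8.58 and 10.3 CPM in miR-501KO mice 1 to 5. The miR-501KO values lay inside the Pax7Cre range, and the log2 fold change was -0.21 (95% interval -0.60 to 0.18, unadjusted p = 0.262 by edgeR). When each mouse was left out, it ranged from -0.31 without Pax7Cre mouse 1 to -0.12 without Pax7Cre mouse 2. *Axin1* measured 35.1, 32.5, 34.6, 37.8 and 36.9 CPM in Pax7Cre and 34.9, 36.6, 35.4, 33.7 and 35.7 CPM in miR-501KO mice. Its log2 difference of -0.0055 had the narrowest interval of the members, from -0.14 to 0.13.

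The other genes of the pathway were read from the same fit. Of 53 listed genes for Wnt secretion, co-receptors, cytoplasmic and nuclear steps, planar polarity and response, 49 were tested, and 0 had an unadjusted p under 0.05 in either direction, beside the 1.05% of all genes. Their log2 fold changes were above 0 for 21 and below 0 for 28, with a median of -0.0077. *Ror1*, a receptor of Wnt5a, came nearest to the unadjusted threshold with a log2 fold change of -0.29 (unadjusted p = 0.0556 by edgeR), but it passed that threshold without Pax7Cre mouse 1 (-0.40, unadjusted p = 0.00398) and without Pax7Cre mouse 4 (-0.33, unadjusted p = 0.0439). *Ror2*, the other Ror receptor, had a log2 fold change of 0.28 (unadjusted p = 0.111 by edgeR), the opposite direction, or 0.39 (unadjusted p = 0.0309) without Pax7Cre mouse 4, and is named outside the rule after its value was seen. By CPM per kilobase, the highest were *Ctnnb1*, which encodes β-catenin, at 77.6 and *Gsk3a*, a kinase of the destruction complex, at 26.6. Among the response genes 0 of 9 tested had an unadjusted p under 0.05, and *Ccnd1* and *Myc* had log2 fold changes of -0.022 and 0.029. *Sp5*, another response gene, and the inhibitor *Sost* were at 0 reads in every mouse.

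The cell types that could carry these messages were followed by their markers. In each of 10 marker lists 0 genes had an unadjusted p under 0.05 by edgeR, and no listed marker was at 0 reads in every mouse. The 7 markers of fibro-adipogenic progenitors, mesenchymal cells that are known to express Sfrp and Wnt genes, summed to 1422 to 2485 CPM in Pax7Cre and 1752 to 2006 CPM in miR-501KO muscle, and 6 of the 7 had a log2 fold change below 0, with a median of -0.078. In Pax7Cre mouse 4, where *Sfrp1* and *Sfrp2* were highest, this sum was the lowest of all mice, and in Pax7Cre mouse 2 it was the highest. The markers did not all follow the sum, which *Dcn* and *Lum* dominate. *Dcn*, *Lum*, *Dpt* and *Cd34* were each lowest in Pax7Cre mouse 4, while *Pdgfra*, *Ly6a* and *Pi16* were not. The 5 myogenic progenitor markers all had log2 fold changes above 0, with a median of 0.05, and the 6 endothelial markers all below 0, with a median of -0.06. The 4 adipocyte markers were all below 0, with a median of -0.33 and summed CPM of 13.8 to 47.3 in Pax7Cre and 3.44 to 36.1 in miR-501KO muscle. The lowest sum was that of miR-501KO mouse 1, and without this mouse the adipocyte median was -0.034, with 2 of 4 markers above 0. The other directions also moved with single mice, and without Pax7Cre mouse 2 the medians were -0.0039, -0.018 and -0.0038 for the progenitor, myogenic and endothelial lists. The part of these cells in the results was not tested.

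The muscles also differed in how much mature fiber message they held, whatever their genotype. The mature fiber score was -0.14, 0.78, -0.29, -0.64 and 0.0068 in Pax7Cre mice 1 to 5 and -0.12, -0.088, -0.028, 0.41 and 0.12 in miR-501KO mice 1 to 5. Across the 10 mice, the log2 CPM of 3 of 36 members (8.33%) correlated with this score at an adjusted p under 0.05 (permutation test with 100000 resamples, Benjamini-Hochberg over 14388 genes), beside a background of 10.8%, made up of 7.33% positive and 3.44% negative. With all mice, the share of members was thus near or below that of all genes. Over all members the median Pearson r was -0.32, beside -0.034 for all genes.

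*Frzb* had the closest relation, with r = 0.87 (permutation p = 4e-04, adjusted p = 0.0152) and rho = 0.85 (permutation p = 0.00281). Without the 2 mice farthest from the median score, Pax7Cre mice 2 and 4, its r was 0.73. *Lgr4* also was higher where the score was higher, with r = 0.86 (permutation p = 0.00161, adjusted p = 0.0275) and rho = 0.82 (permutation p = 0.00589), but r fell to 0.54 without these mice and so rests partly on them. *Fzd3* was lower where the score was higher, with r = -0.81 (permutation p = 0.0049, adjusted p = 0.0481) and rho = -0.75 (permutation p = 0.0176), and r was -0.71 without these mice. Calls with the score depended on single mice among all genes as among the members. With Pax7Cre mouse 2 left out, 0 members in either direction had an adjusted p under 0.05, beside 0.16% of all genes, and with miR-501KO mouse 4 left out 0 members, beside 1.06%. Without Pax7Cre mouse 4 the count was 0 positive and 2 negative, beside 6.1% of all genes in both directions. Without Pax7Cre mouse 3 it rose to 3 positive and 3 negative, beside 12.1% of all genes in both directions. In that fit the share of members was above that of all genes. The negative count was *Fzd3* alone with all mice. It was also 0 without Pax7Cre mouse 1, without any single miR-501KO mouse and with no filter on low counts. Negative calls over all genes were 495 of 14388 with all mice, 474 without Pax7Cre mouse 1 and 363 of 19832 with no filter. They numbered 306 to 381 without miR-501KO mouse 1, 2, 3 or 5, and 22 without miR-501KO mouse 4.

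For the R-spondin genes r was below 0 without passing the adjusted threshold. *Rspo2* had r = -0.76 (permutation p = 0.0137, adjusted p = 0.0839) and rho = -0.43 (permutation p = 0.218), and *Rspo3* had r = -0.62 (permutation p = 0.0577, adjusted p = 0.19) and rho = -0.72 (permutation p = 0.023). Without Pax7Cre mice 2 and 4, their r was -0.91 and -0.86. For the members with the smallest genotype p, *Wnt16* had r = 0.02 (permutation p = 0.957, adjusted p = 0.979) and rho = -0.067 (permutation p = 0.864), and *Sfrp1* had r = -0.34 (permutation p = 0.341, adjusted p = 0.556) and rho = -0.19 (permutation p = 0.608). *Sfrp2* had r = -0.67 (permutation p = 0.0425, adjusted p = 0.159) and rho = -0.52 (permutation p = 0.134). Without the same 2 mice, r was -0.33 for *Wnt16*, -0.28 for *Sfrp1* and -0.35 for *Sfrp2*. The score and the mitochondrial share were both extreme in Pax7Cre mice 2 and 4, and the part of this difference in the relations was not tested.

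**Figure D4:**
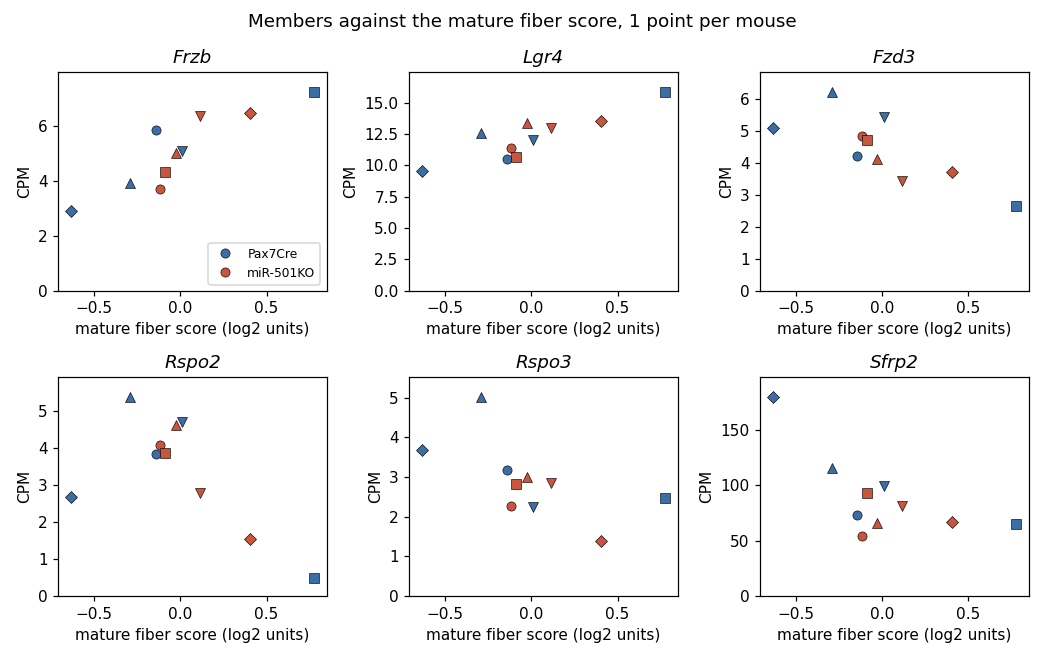
CPM of 6 members against the mature fiber score (mean centred log2 CPM of 22 genes), with 1 point per mouse, Pax7Cre in blue and miR-501KO in red. Frzb (r = 0.87) and Lgr4 (r = 0.86) rise and Fzd3 (r = -0.81) falls along the score, whose lowest and highest points are Pax7Cre mice 4 (-0.64) and 2 (0.78).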

How the data were processed

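RNA from 10 TA muscles was prepared with a TruSeq stranded mRNA kit and sequenced on a NovaSeq instrument. The authors aligned reads with STAR, and the deposited values are raw counts per gene, with featureCounts, R 3.5.1 and the build GRCm38.p5 named in the submitters' processing notes. The strand setting and the treatment of reads with several matches are not given in the sources used here, and 8 members have exons that overlap a gene on the opposite strand. Identifiers were matched to GENCODE M21 (GRCm38), and 25664 of 25700 were found. Members, lists and tests were chosen with earlier results of these data known.

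Libraries were scaled by TMM with edgeR 4.0.16 under R 4.3.3. filterByExpr (minimum count 10, minimum total 15) retained 14410 genes, and genotypes were compared by the quasi-likelihood test with Benjamini-Hochberg adjustment, a step checked on simulated data. All 36 members passed this filter. Groups came from the sample titles. Exact two-sided permutation tests used CPM. Log2 CPM for the fiber score used a prior count of 2, and the score's 22 genes were left out of the genes tested. Genes are named with all 10 values if, within their role, they were among the 2 most abundant per kilobase, had the 2 smallest p or the largest fold change, or are known in muscle (*Wnt5a*, *Wnt7a*, *Wnt10b*, *Fzd4*, *Fzd7*, *Sfrp1*, *Sfrp2*, *Frzb*, *Wif1*, *Dkk3*, *Rspo1*, *Rspo3*, *Lgr5*, *Axin2*). Sites were searched on the transcript strand of every annotated 3′ UTR. Alternatives were DESeq2 1.42.0 size factors and Wald test, the likelihood ratio test, other filters, a replicate block and leaving out each mouse. Totals of 18609222 to 24753258 counts per mouse limit genes with few reads.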

Additional observations from a re-analysis of the deposited data

Results flagged for a closer look

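In 72 groups of 5 mice (36 members in each genotype), 2 held a mouse whose gap to the nearest other mouse, divided by the range of the group, was above Dixon's critical value of 0.71. Chance flags about 1 group in 20, or 3.6 of 72. *Wnt10b* was at 1.53 CPM in Pax7Cre mouse 3, beside 0.314 to 0.633 CPM in the other Pax7Cre mice. *Wnt2b* was at 0.211 CPM in Pax7Cre mouse 2, beside 0.74 to 0.931 CPM in the other Pax7Cre mice. Both genes have few reads, at most 29 and 23 per mouse.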

How the results depend on the processing

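Between the genotypes, no gene reached an adjusted p under 0.05 in any of the alternatives run, with 0 members and 0 other pathway genes in each. *Wnt16* kept its direction and an unadjusted p under 0.05 in all of them. At an unadjusted p under 0.05, all genes higher and lower in miR-501KO muscle numbered 55 and 96, beside 153 and 159 with no filter and 36 higher with at least 10 counts in every mouse, a filter that leaves 31 members. Leaving out each mouse gave 39 to 267 higher genes and 59 to 242 lower genes. The highest of the first came without Pax7Cre mouse 2 (267 higher, 186 lower), the highest of the second without Pax7Cre mouse 4 (228 higher, 242 lower) and the lowest of the second without miR-501KO mouse 1 (59). Leaving out each mouse gave 0 to 2 members higher (2 without Pax7Cre mouse 4, namely *Wnt7b* and *Wnt9a*) and 1 to 3 lower (1 without Pax7Cre mouse 4 and 1 without miR-501KO mouse 1). Other pathway genes ranged from 0 to 1 higher (*Ror2* without Pax7Cre mouse 4) and 0 to 1 lower (*Ror1* without Pax7Cre mouse 1 or 4). DESeq2's Wald test and edgeR's likelihood ratio test each called 1 member higher, *Wnt7b*, and 3 lower, beside 52 and 64 genes higher and 98 and 95 lower over all genes. With no filter, 1 other pathway gene, *Ror1*, was lower. When each mouse was left out, 0 to 3 members correlated positively and 0 to 3 negatively with the fiber score. Over all genes, 0.16% to 12.1% were called in these fits, in both directions. Both highest member counts came without Pax7Cre mouse 3, beside 12.1% of all genes. With no filter, 0 members were negative, beside 363 of 19832 genes. Positive calls numbered 0 without Pax7Cre mouse 2, Pax7Cre mouse 4 or miR-501KO mouse 4, and negative calls numbered 0 without Pax7Cre mouse 1 or 2 or without any miR-501KO mouse. Cause was not tested beyond the change in genes or mice that each alternative makes.

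The sample titles do not say whether equal mouse numbers mark a pair. The correlations of same-numbered mice were 0.337, -0.154, 0.156, -0.305 and 0.204. With the mouse number as a replicate block, 87 genes were higher and 102 lower at an unadjusted p under 0.05. In that fit 1 member was higher (*Wnt7b*, 1.38) and 1 other pathway gene was lower (*Ror1*). The members below 0 went from 30 to 26, as *Wnt5a*, *Fzd2*, *Sfrp4* and *Rspo2* turned to 0.0087, 0.034, 0.11 and 0.07. The share of all genes below 0 also fell, from 52.1% to 47.9%. At an unadjusted p under 0.05, 2 members stayed lower, *Wnt16* and *Sfrp1* (-0.43, unadjusted p = 0.00721 by edgeR). *Sfrp2* was at -0.49 (unadjusted p = 0.0647 by edgeR). Leaving out each mouse, the sign turned, among the 20 members named with all values, for *Wnt10b* (-0.32 to 0.41), *Wnt11* (-0.17 to 0.031), *Wnt5a* (-0.092 to 0.12), *Fzd2* (-0.12 to 0.17), *Fzd7* (-0.041 to 0.031), *Dkk3* (-0.20 to 0.0396), *Frzb* (-0.10 to 0.22), *Lgr4* (-0.0395 to 0.15), *Lgr5* (-0.12 to 0.13) and *Axin1* (-0.036 to 0.0196). Among the other members it turned for *Wnt2b*, *Fzd5*, *Fzd6*, *Fzd8*, *Fzd10*, *Lrp5*, *Dkk2*, *Sfrp4* (-0.16 to 0.27), *Sfrp5* (-0.38 to 0.15) and *Rspo2* (-0.28 to 0.21). Genes with under 30 reads per mouse, such as *Wnt7b*, *Wnt10b* and *Wnt2b*, are limited by depth.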
